A study of Mus musculus with 6 samples.

Results

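The genes described here are the subunits of the transcription factor NF-kappaB and a set of its inhibitors. They were chosen by name: Rela, Rel, Relb, Nfkb1 and Nfkb2 for the Rel-family subunits, Nfkbia, Nfkbib and Nfkbie for the cytoplasmic IkB proteins, and Tnfaip3 and Tnip1 for the A20 feedback pair. All 10 symbols matched a single identifier among the 56691 genes in the count tables, and all 10 had enough counts to be tested. The cells were macrophages differentiated in culture from the bone marrow of 3 mice, named a, b and c. Cells seeded on day 4 of differentiation were given 2 µM thiothixene or the solvent DMSO on day 6 for 24 h. Thiothixene is a thioxanthene antipsychotic and a dopamine receptor antagonist. With 1 library per mouse and treatment, 3 thiothixene libraries stood against 3 DMSO libraries. No library received an inflammatory stimulus that the labels name, and the labels used here state neither strain nor sex nor age.

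NF-kappaB acts as dimers of Rel-family proteins. In resting cells the dimers are held in the cytoplasm by IkB proteins, which are destroyed when a receptor such as a Toll-like receptor activates the IkB kinase complex. Freed dimers of RelA or c-Rel with the product of Nfkb1 form the canonical arm, and RelB with the product of Nfkb2 forms the alternative arm. Several genes of the system are themselves NF-kappaB targets, among them those for IkB-alpha, A20 and the Nfkb2 precursor.

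The letters GGGNNNTTCC, a form of the kB motif that Rel dimers bind, were searched on both strands in the 250 bases before each RefSeq start (GRCm38.p6). RefSeq promoter entries were found for 8 of the 10 genes, and 6 of these 8 held the motif in at least 1 entry, against 5.31% of the 27025 genes in the table. Rela and Nfkbib held no match in this window, which says only that these letters are not there. The stretches around the matches are shown because they carry this shared feature. They lie at chr11:23771026-23771085 (minus strand) for Rel, chr19:46304674-46304736 (plus strand) for Nfkb2, chr12:55492648-55492701 (minus strand) for Nfkbia, chr17:45555569-45555628 (plus strand) for Nfkbie, chr10:19015411-19015447 (minus strand) for Tnfaip3 and chr11:54962962-54963023 (minus strand) for Tnip1. Capitals mark the motif on either strand, and each line reads 5′ to 3′ toward the start.
Rel: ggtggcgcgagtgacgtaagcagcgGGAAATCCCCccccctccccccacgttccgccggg
Nfkb2: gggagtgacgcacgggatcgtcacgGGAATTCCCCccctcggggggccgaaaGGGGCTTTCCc
Nfkbia: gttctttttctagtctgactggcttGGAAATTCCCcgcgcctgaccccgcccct
Nfkbie: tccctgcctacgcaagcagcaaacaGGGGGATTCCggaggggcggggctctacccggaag
Tnfaip3: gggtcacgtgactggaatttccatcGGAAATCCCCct
Tnip1: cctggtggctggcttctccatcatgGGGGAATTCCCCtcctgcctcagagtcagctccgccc
The first base of the Nfkbia match lay 29 bases before the start and that of Tnfaip3 12 bases before it. Nfkb2 held 2 matches in its most upstream entry, at 38 and 11 bases. In Tnip1 the capitals are 2 overlapping matches, one on each strand, at 58 and 56 bases.

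Gene counts ranged from 18548095 to 20264090 in the thiothixene libraries and from 10472349 to 22297520 in the DMSO libraries, the DMSO library of mouse b being the thinnest. Correlations of log2 CPM (a gene's count scaled to a fixed library size) across genes ran from 0.825 to 0.981 between libraries, and library quality weights were low (0.209 to 0.537) for thiothixene from mouse a and DMSO from mice b and c, against 2.28 to 6.23 for the other three. The libraries also differed in how they favoured GC-rich transcripts. The median log2 deviation of genes with at least 54.1% transcript GC minus that of genes with at most 44.7%, called the GC contrast here, was -0.66, 0.31 and 0.38 with thiothixene (mice a, b and c in order) and 0.17, 1.14 and -1.26 with DMSO. The macrophage markers were abundant, led by Lyz2, although Itgam, which macrophages are known to express, was listed with a single count over all libraries, so a listed 0 is not read as absence here. Summed neutrophil markers, led by S100a9, were 333 to 392 CPM with thiothixene and 359 to 843 CPM with DMSO, the highest value being that of DMSO from mouse b. Summed dendritic cell markers were 16.6 to 30.0 CPM with thiothixene and 7.72 to 15.2 CPM with DMSO. Nearly all of that was Itgax, which macrophages also express, while Cd209a was at 0 and Flt3, Zbtb46, Ccr7 and Xcr1 were each below 1 CPM in every library. The T and NK cell list summed to less than 1 CPM in every library with Cd3d at 0, and its highest member was Cd3g. The B cell list was led by Cd79b, and both Ms4a1 and Pax5 were at 0. In the mast cell list, led by Cpa3, Fcer1a was at 0, and in the erythroid list, which Alas2 led, both Hbb-bs and Hbb-bt were at 0. Stromal markers, led by Col1a1, summed to 55.3 to 290 CPM with thiothixene and 95.5 to 164 CPM with DMSO. The part of the neutrophil, Itgax and stromal differences in the results below was not tested.

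With thiothixene the transcript of Tnfaip3, the brake named A20, was about 1.97-fold higher, while those of the IkB genes Nfkbie and Nfkbia were lower in every mouse, and none of these differences passed adjustment over all genes. An adjusted p of 0.05 was reached by 0 of the 10 in edgeR's quasi-likelihood test, in DESeq2 (0.0623% of genes called) and in limma-voom (0%). At an unadjusted p under 0.05 edgeR gave 2, Tnfaip3 and Nfkbie, where 1.72% of 14856 tested genes lay under that value and 0% of them passed the adjusted threshold. The smallest adjusted p of a member in edgeR was 0.9998. Library quality weights in limma-voom, which called 0.168% of genes, and edgeR with no filter on low counts, which called 0.00408%, also called 0 members. Without the 3 libraries of low quality weight, edgeR called Relb, Nfkb1 (both lower) and Tnfaip3 (higher) among 6.99% of genes, with 2 thiothixene libraries against a lone DMSO library of another mouse. The median log2 fold change (thiothixene over DMSO) of the 10 genes was -0.29, with 3 above 0 and 7 below, and that of all tested genes was -0.04, with 45.3% above 0. Thiothixene and DMSO libraries did not overlap for 3 of the 10 genes, Tnfaip3 on the higher side and Nfkbia and Nfkbie on the lower side. Over all tested genes 6.65% did not overlap, 3.88% on the higher and 2.77% on the lower side. These are bulk libraries, so a smaller share of cells that express a gene and less of its RNA per cell cannot be told apart.

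**Figure D1:**
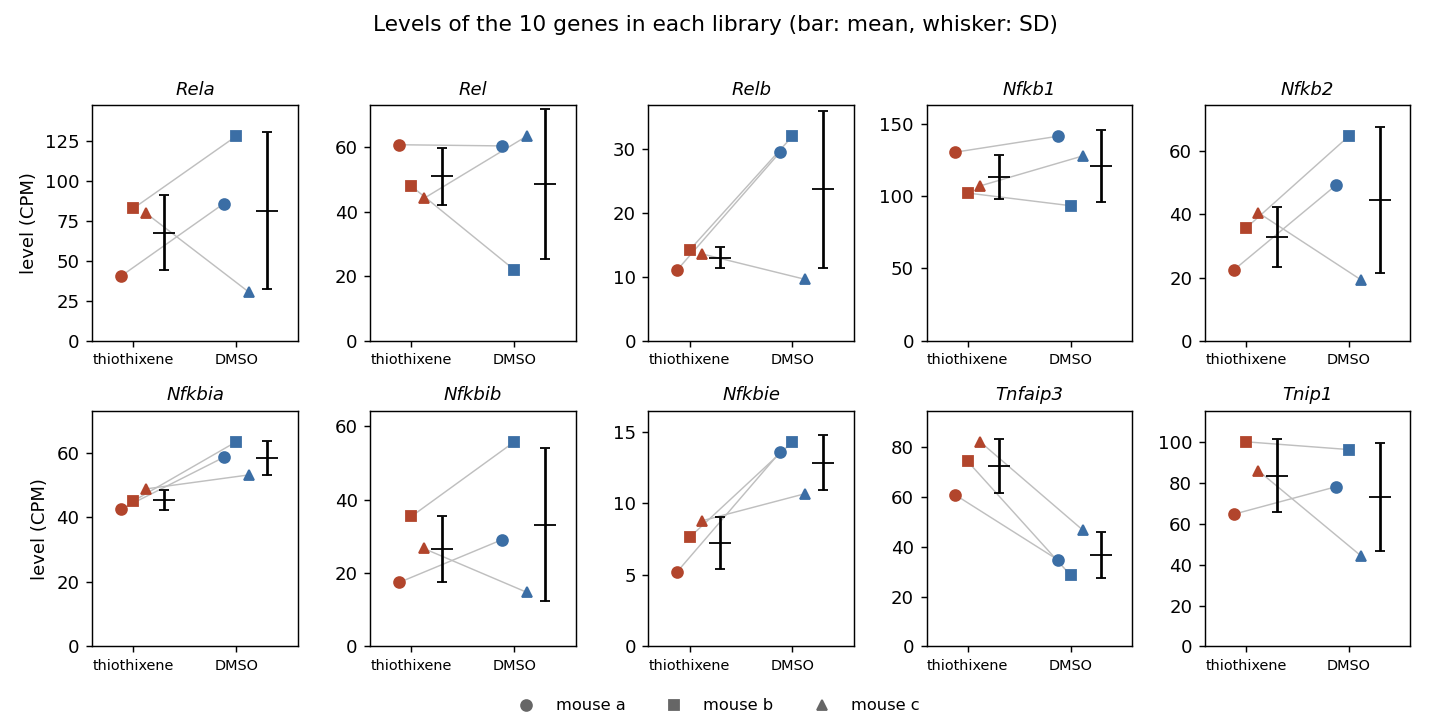
Level of each gene in CPM (vertical axes from 0) in the 3 thiothixene and 3 DMSO libraries, with marker shapes for mice a, b and c and grey lines joining libraries of the same mouse. Bars and whiskers are means and SDs (n = 3). Tnfaip3 is the gene whose 3 thiothixene libraries all lie above its 3 DMSO libraries, and Nfkbia and Nfkbie are those whose thiothixene libraries all lie below.

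The canonical subunit Rela, which carries the main transactivation domain of the pathway (ENSMUSG00000024927.9, chr19:5637483-5648130, plus strand, GRCm38), measured 40.4, 82.7 and 79.9 CPM with thiothixene (mice a, b and c, the order kept below) and 85.7, 128 and 30.6 CPM with DMSO. The groups overlapped widely, with the DMSO libraries holding both the highest and the lowest value. Thiothixene over DMSO came to -0.26 on the log2 scale (SE 0.52, 95% interval -1.46 to 0.93). Rel, the gene for c-Rel (ENSMUSG00000020275.10, chr11:23736847-23770970, minus strand), measured 60.8, 47.9 and 44.1 CPM with thiothixene and 60.4, 22.0 and 63.4 CPM with DMSO. Its low library was DMSO from mouse b, the library in which Rela was highest. The log2 fold change of Rel was 0.06 (SE 0.42). Nfkb1, whose precursor is processed to a subunit with no transactivation domain (ENSMUSG00000028163.18, chr3:135584655-135691547, minus strand), varied least of the subunits between libraries. It measured 130, 102 and 107 CPM with thiothixene and 141, 93.3 and 128 CPM with DMSO, a log2 fold change of -0.10 (SE 0.28, 95% interval -0.74 to 0.55).

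Of the alternative arm, Relb (ENSMUSG00000002983.18, chr7:19606217-19629438, minus strand) measured 11.1, 14.2 and 13.6 CPM with thiothixene and 29.6, 32.1 and 9.64 CPM with DMSO. All 3 thiothixene libraries lay well below the DMSO libraries of mice a and b and above that of mouse c. Its log2 fold change was -0.87 (SE 0.46, edgeR unadjusted p = 0.0967), the most negative among the 5 subunits. The within-mouse differences were -1.40, -1.17 and 0.49. Nfkb2, which encodes the precursor that pairs with RelB (ENSMUSG00000025225.16, chr19:46304320-46312385, plus strand), was likewise lowest in DMSO from mouse c and highest in DMSO from mouse b. It measured 22.3, 35.6 and 40.5 CPM with thiothixene and 49.3, 64.7 and 19.2 CPM with DMSO, a log2 fold change of -0.43 (SE 0.46). That value was -0.79 without DMSO from mouse c, -0.062 without DMSO from mouse b and -0.22 without thiothixene from mouse a. Its within-mouse differences were -1.14, -0.86 and 1.07, so mouse c again ran opposite to mice a and b.

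The levels of Rela and Rel moved with the GC contrast of the libraries, whose part in the results was tested only through the offsets below. From the lowest contrast to the highest, the order of libraries was DMSO c, thiothixene a, DMSO a, thiothixene b, thiothixene c and DMSO b. Rela, with 59.4% GC in its longest transcript, was lowest in the first pair of that order and highest in the last library, a 4.18-fold range. Rel, with 42.5% GC, ran the other way and was lowest in that last library. Transcript GC was above the upper quartile of tested genes (54.1%) in 6 of the 10 genes, Rela, Relb, Nfkb2, Nfkbib, Nfkbie and Tnip1, and below the lower quartile (44.7%) in Rel alone. Offsets for GC content and length, fitted per library after the data were seen, were therefore added as an alternative. They cut the SE of the log2 fold change 3.19-fold for Rela, 2.695-fold for Nfkb2, 2.37-fold for Nfkbib and 2.18-fold for Rel, and 1.14-fold for Nfkbia. The SD of log2 CPM over the 6 libraries did not fall for every member. It rose with the offsets from 0.22 to 0.32 for Nfkbia and from 0.54 to 0.56 for Nfkbie, and fell for the others.

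**Figure D2:**
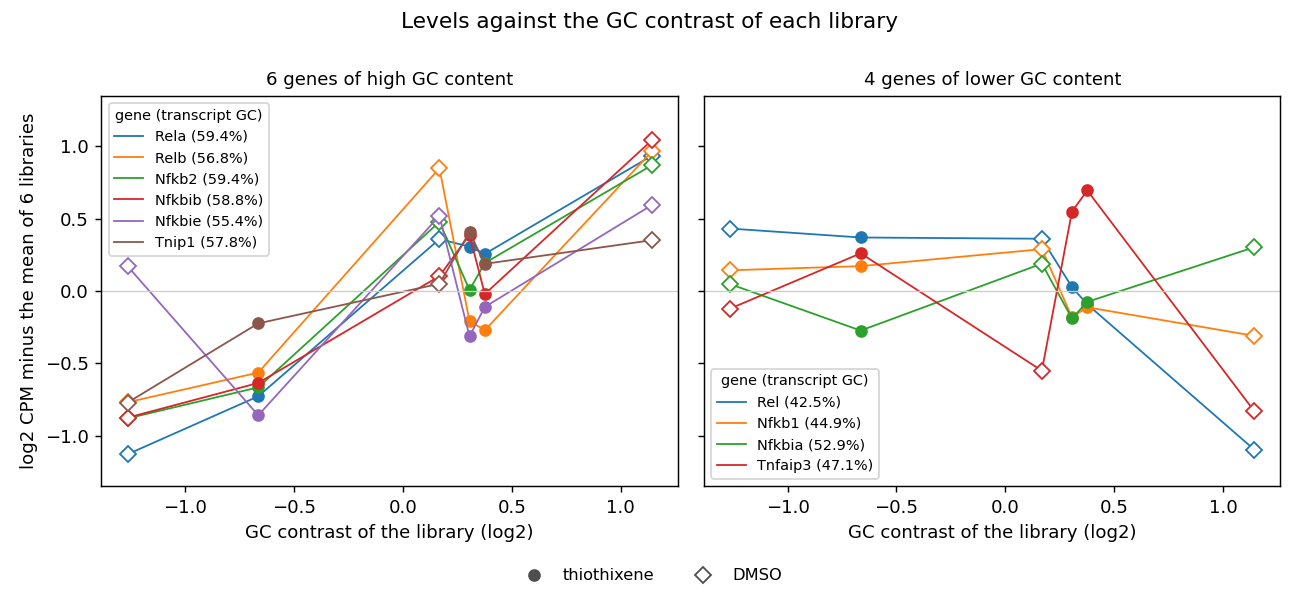
Log2 CPM of each gene minus its mean over the 6 libraries (vertical) against the GC contrast of the library (horizontal, log2), for 6 genes with a transcript GC above 54.1% (left) and the 4 others (right). Filled circles are thiothixene and open diamonds DMSO libraries. The GC-rich genes are at their lowest in the libraries with contrasts of -1.26 or -0.66, whereas Rel, Nfkb1 and Tnfaip3 are lowest where the contrast is 1.14.

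With the offsets, the alternative-arm subunits separated by treatment. Relb lay at 3.85, 3.63 and 3.49 on the adjusted log2 CPM scale with thiothixene and at 4.72, 4.47 and 4.12 with DMSO. Adjusted values of Nfkb2 were 4.94, 4.85 and 4.93 with thiothixene and 5.37, 5.51 and 5.29 with DMSO. Neither gene's groups overlapped on this scale, on which 10.9% of tested genes did not overlap, 5.08% on the higher and 5.79% on the lower side. The log2 fold changes were -0.80 (SE 0.25, edgeR unadjusted p = 0.0118) for Relb and -0.48 (SE 0.17, edgeR unadjusted p = 0.0227) for Nfkb2. In this fit 4 of the 10 genes had an unadjusted p under 0.05, Relb, Nfkb2, Nfkbie and Tnfaip3, against 3.99% of tested genes, and 0 of the 10 passed the adjusted threshold, as did 0% of tested genes. With mouse as a replicate block beside the offsets, 3 of these remained under 0.05, against 441 of 14856 tested genes. The edgeR unadjusted p of Nfkb2 was then 0.0703. The canonical subunits overlapped on the adjusted scale too, with log2 fold changes of -0.20 (SE 0.16) for Rela, -0.0098 (SE 0.19) for Rel and -0.17 (SE 0.17) for Nfkb1. The 95% intervals, from -0.57 to 0.18 for Rela and from -0.45 to 0.43 for Rel, give the precision of those values.

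**Figure D3:**
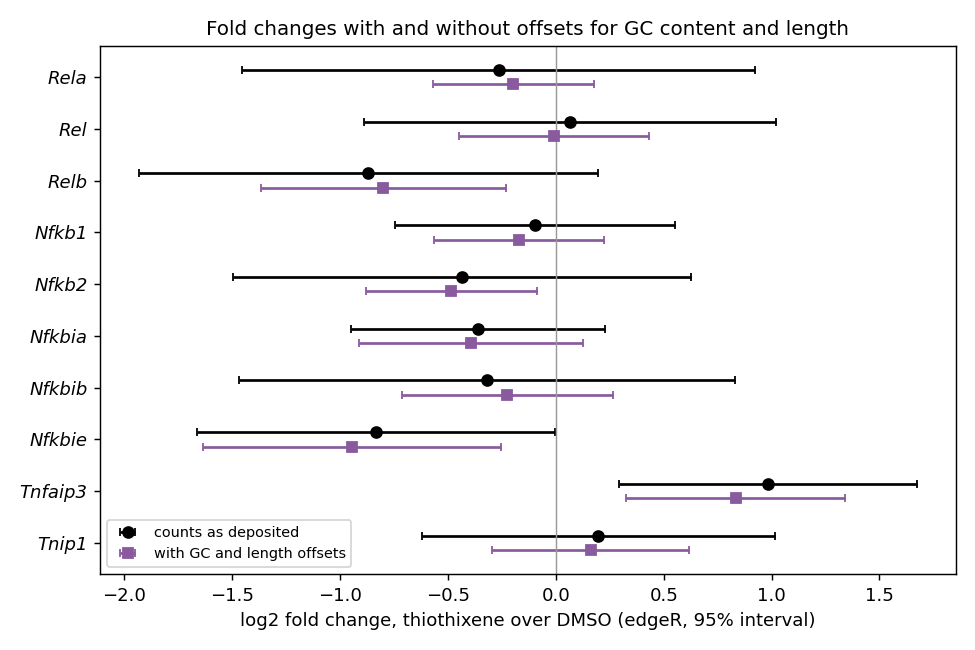
Log2 fold change of each gene, thiothixene over DMSO (horizontal), with its 95% interval from edgeR, for the counts as deposited (black circles) and with offsets fitted to each library's GC and length trends (purple squares). Intervals narrow with the offsets, most for Rela, and Tnfaip3 lies above 0 and Nfkbie below 0 in both fits.

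Nfkbia encodes IkB-alpha, the fastest of the feedback inhibitors (ENSMUSG00000021025.9, chr12:55489410-55492647, minus strand). It measured 42.6, 45.1 and 48.8 CPM in the thiothixene libraries and 58.6, 63.4 and 53.2 CPM in the DMSO libraries. Every thiothixene library was below every DMSO library, and the means were 45.5 ± 3.16 and 58.4 ± 5.14 CPM (SD, n = 3). In edgeR the log2 value was -0.36 (SE 0.26, edgeR unadjusted p = 0.197), and the difference was -0.46, -0.49 and -0.12 in mice a, b and c. With the GC and length offsets the groups overlapped, since thiothixene from mouse a (5.65) lay above DMSO from mouse b (5.52), and the log2 fold change was -0.39.

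Nfkbie encodes IkB-epsilon, an inhibitor that holds dimers of RelA and c-Rel (ENSMUSG00000023947.9, chr17:45555703-45563169, plus strand). It had the lowest mean CPM of the members, with 110, 142 and 178 counts with thiothixene and 304, 128 and 250 counts with DMSO. Scaled to library size these were 5.22, 7.62 and 8.78 CPM with thiothixene and 13.6, 14.3 and 10.7 CPM with DMSO, again without overlap. Its log2 fold change of -0.83 (SE 0.36) had an interval of -1.66 to -0.0024 at the 95% level and an edgeR unadjusted p of 0.0495. With mouse as a replicate block the value was -0.85 and its edgeR unadjusted p 0.118. All 3 mice were lower with thiothixene, by differences of -1.36, -0.90 and -0.28, a pattern found in 6.82% of tested genes. With the offsets the value was -0.94 (SE 0.30) and the groups did not overlap. Nfkbib encodes IkB-beta, which is not strongly induced by NF-kappaB (ENSMUSG00000030595.16, chr7:28758251-28767512, minus strand). It measured 17.4, 35.4 and 26.7 CPM with thiothixene and 29.1, 55.7 and 14.8 CPM with DMSO. Like Rela it was lowest in DMSO from mouse c and highest in DMSO from mouse b, and its log2 fold change of -0.32 was smaller than its SE of 0.50.

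Tnfaip3 encodes A20, a ubiquitin-editing enzyme that shuts down signalling upstream of the IkB kinases (ENSMUSG00000019850.12, chr10:19000910-19015657, minus strand). It had 1282, 1385 and 1668 counts with thiothixene and 777, 256 and 1095 with DMSO. Levels were 60.9, 74.4 and 82.3 CPM with thiothixene and 34.7, 28.6 and 46.7 CPM with DMSO. The lowest thiothixene library was thus above the highest DMSO library, and the means were 72.5 ± 10.8 and 36.7 ± 9.22 CPM (SD, n = 3). On the log2 scale the fold change was 0.98 (SE 0.30, 95% interval 0.29 to 1.67). Its unadjusted p in edgeR was 0.0109, rank 59 of the tested genes, and 0.0273 with mouse as a replicate block. Within mice a, b and c the difference was 0.81, 1.38 and 0.81, higher in 3 of 3 mice, as were 7.49% of tested genes. With the GC and length offsets the adjusted log2 CPM values were 5.74, 6.18 and 6.32 with thiothixene and 5.04, 5.50 and 5.24 with DMSO. The log2 fold change was then 0.83 (SE 0.22, edgeR unadjusted p = 0.00548), and the adjusted p was 0.876.

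Tnip1 encodes ABIN1, an adaptor that ties A20 to ubiquitin chains (ENSMUSG00000020400.18, chr11:54910785-54962917, minus strand). It measured 64.6, 100.1 and 86.0 CPM with thiothixene and 78.2, 96.3 and 44.2 CPM with DMSO. The groups overlapped and the mice disagreed, with differences of -0.27, 0.06 and 0.96. The log2 fold change was 0.20 (SE 0.36).

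Levels were compared between genes per kilobase of exon (CPM per kilobase, union of annotated exons). On that scale Nfkbia had the highest mean of the 10, at 28.3 ± 1.96 with thiothixene and 36.3 ± 3.19 with DMSO (SD, n = 3). In single libraries, Rela was above it in DMSO from mouse b and Tnip1 in thiothixene from mouse b. Rela averaged 22.0 ± 7.70 with thiothixene and 26.5 ± 15.9 with DMSO, and Tnip1 23.6 ± 5.04 with thiothixene and 20.6 ± 7.46 with DMSO. Tnfaip3 averaged 10.03 ± 1.496 with thiothixene and 5.07 ± 1.28 with DMSO. Nfkbie had the lowest mean, at 2.37 ± 0.596 with thiothixene and 4.22 ± 0.631 with DMSO, although Relb was below it in DMSO from mouse c. Among the 5 subunits, Rela made up 44.2 ± 9.70% of the summed level per length with thiothixene and 41.9 ± 13.9% with DMSO. Relb was the smallest part with thiothixene, at 6.89 ± 0.294%, against 9.84 ± 2.52% with DMSO. Its share was 7.19%, 6.88% and 6.60% with thiothixene and 11.5%, 11.1% and 6.95% with DMSO, so DMSO from mouse c lay within the thiothixene range. Shares depended on the length used, and so did which subunit had the largest mean share. Over its 12061 bases of annotated exons, Nfkb1 made up 19.9 ± 6.26% with thiothixene and 19.2 ± 9.72% with DMSO. Over its longest transcript of 4149 bases it made up 38.7 ± 9.24% with thiothixene and 37.0 ± 15.0% with DMSO. Rela, over its own longest transcript, then made up 34.2 ± 9.46% with thiothixene and 33.3 ± 14.1% with DMSO. These means were below those of Nfkb1, but the order differed between libraries. Rela was above Nfkb1 in thiothixene from mice b and c and in DMSO from mouse b, and below it in the others.

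**Figure D4:**
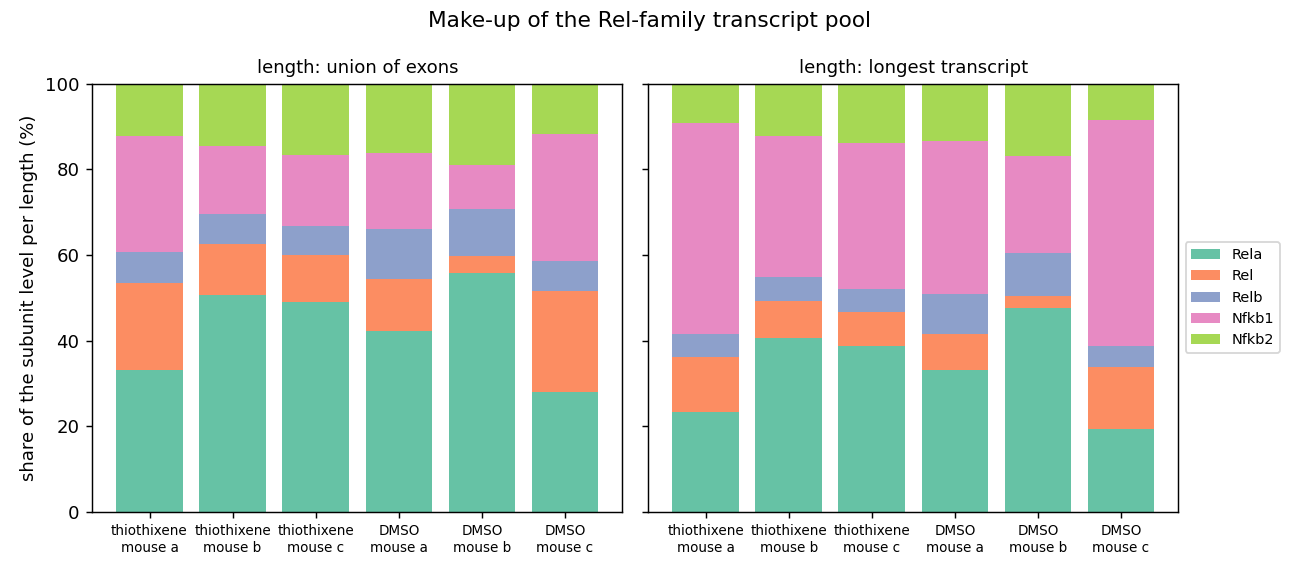
Share of each Rel-family gene in the summed subunit level per length (vertical, percent) in each of the 6 libraries, with lengths from the union of exons (left) or the longest transcript (right). Rela ranges from 27.9% in DMSO from mouse c to 55.7% in DMSO from mouse b over the union of exons, and the Nfkb1 part is larger on the right.

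Ratios of counts within a library do not depend on its scaling. Tnfaip3 counts stood at 0.468, 0.729 and 0.769 per Nfkb1 count in the thiothixene libraries and at 0.246, 0.307 and 0.366 in the DMSO libraries. The ratio was higher with thiothixene without overlap, by 0.93, 1.25 and 1.07 on the log2 scale in mice a, b and c. For Nfkb2 over Relb the ratios were 2.01, 2.50 and 2.97 with thiothixene and 1.67, 2.02 and 2.00 with DMSO. These overlapped by a narrow margin, and the within-mouse differences were 0.27, 0.31 and 0.58. For Nfkbie over Rel the ratio was higher in mouse c and lower in mice a and b, with differences of -1.39, -2.03 and 0.24. Nfkbia over Rela differed by 0.62, 0.14 and -1.51 and so had no common direction. That ratio was highest, at 1.74, in DMSO from mouse c, the library of lowest GC contrast. It was lowest, at 0.497, in DMSO from mouse b, the library of highest GC contrast, where Nfkbie over Rel was highest, at 0.650. The ratios were not adjusted for GC content, and the part of the GC contrast in them was not tested. A further ratio, chosen after its values were seen, set the feedback genes against each other. Tnfaip3 per Nfkbia was 1.43, 1.65 and 1.68 with thiothixene and 0.592, 0.451 and 0.879 with DMSO. That these do not overlap follows from the levels already given, Tnfaip3 being higher and Nfkbia lower in every thiothixene library.

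In the rest of the pathway, 88 genes were listed and 82 were tested, of which 33 had a log2 fold change above 0 and 49 below, with a median of -0.09. After adjustment edgeR called 0 of them, 2 had an unadjusted p under 0.05 in edgeR (1.72% over all tested genes), and 7 did not overlap between groups, a share of 8.54% against 6.65% of all tested genes. Among receptors and sensors, 4 of 16 tested genes were above 0 and the median was -0.17. Tlr2, a receptor for bacterial lipopeptides, measured 38.5, 28.5 and 21.8 CPM with thiothixene and 72.8, 66.2 and 55.1 CPM with DMSO. Its groups did not overlap, and it stood at -1.13 (SE 0.31) on the log2 scale. Its adjusted p was 0.9998 in edgeR and 0.343 in DESeq2. Limma-voom with library quality weights called it (-1.40, adjusted p = 0.0358), among 0.168% of tested genes. In that fit DMSO from mouse a weighed 2.28, against 0.209 and 0.228 for DMSO from mice b and c. Without the 3 libraries of low quality weight, which leaves DMSO from mouse a alone in its group, the edgeR value was -1.53. Tlr1, the partner of Tlr2 in lipopeptide recognition, had a log2 fold change of -0.71 (SE 0.36), and of -0.39 without DMSO from mouse c. Tnfrsf1b, a receptor for tumour necrosis factor and the most abundant of the list, averaged 409 CPM with thiothixene and 326 CPM with DMSO, a log2 fold change of 0.33 (SE 0.33).

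Adaptors and ubiquitin ligases had 8 of 19 tested genes above 0 and a median of -0.06. Irak2, a kinase of the interleukin-1 receptor and Toll-like receptor complex, measured 72.3, 71.6 and 72.1 CPM with thiothixene and 58.0, 58.3 and 51.9 CPM with DMSO. Its groups did not overlap, and its log2 fold change was 0.36 (SE 0.25). With the GC and length offsets the groups overlapped, DMSO from mouse c (6.15) lying above thiothixene from mice b (6.07) and c (6.03). Irak4, which phosphorylates its relatives in that complex, was at -0.37 (SE 0.32), and at -0.082 without DMSO from mouse c. Myd88, an adaptor that macrophages are known to use, was listed at 0 in all 6 libraries. The kinases had 5 of 11 above 0 and a median of -0.02. Ikbkg, the regulatory subunit of the IkB kinase complex, measured 330, 338 and 339 CPM with thiothixene and 301, 320 and 283 CPM with DMSO. These did not overlap, and the log2 fold change was 0.16 (SE 0.25). Under the GC and length offsets the groups overlapped and the sign turned to -0.17, with a larger SE of 0.36. Map3k14, the kinase of the alternative arm, was at -0.18 (SE 0.32). The nuclear IkB genes Bcl3, Nfkbiz and Nfkbid, which act on promoters rather than in the cytoplasm, were at -0.63 (SE 0.55), -0.10 (SE 0.39) and 0.02 (SE 0.52).

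Of the A20 partners and deubiquitinases, 6 of 9 were above 0, with a median of 0.08. Tnip3, which encodes a further ABIN adaptor of A20, measured 38.0, 23.5 and 31.3 CPM with thiothixene and 40.3, 39.7 and 75.9 CPM with DMSO. The groups did not overlap, and the log2 fold change of -0.75 (SE 0.36) was opposite in sign to that of Tnfaip3. Without DMSO from mouse c it was -0.37. Rnf11, a component of the A20 complex, was at 0.31 (SE 0.30) and Tax1bp1, an ubiquitin-binding partner, at 0.08 (SE 0.36). Target genes of NF-kappaB in macrophages had 9 of 24 above 0 and a median of -0.09, and Il6, Il12b, Cxcl1 and Nos2 were too low to be tested. Marcksl1, an actin regulator, measured 24.7, 31.5 and 33.5 CPM with thiothixene and 55.7, 102 and 33.9 CPM with DMSO, a log2 fold change of -1.09 (SE 0.42). Thiothixene from mouse c lay just below DMSO from mouse c, so the groups did not overlap. The chemokine gene Cxcl10 averaged 0.449 CPM with thiothixene and 1.65 CPM with DMSO, and its fold change was -1.86 (SE 0.84) on the log2 scale. Plau, which encodes urokinase, measured 575, 527 and 616 CPM with thiothixene and 234, 265 and 553 CPM with DMSO, a log2 fold change of 0.71 (SE 0.37).

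The patterns of the 10 genes over the libraries were compared as the mean absolute difference of log2 CPM, each gene centred on its own mean over 6 libraries. Rela and Nfkb2 were each other's nearest members, at 0.14, and the nearest member to Relb was Nfkb2, at 0.23. The nearest member to Nfkbib was Rela, at 0.18, and to Tnip1 it was Nfkbib, at 0.25. Nfkbia and Nfkb1 were nearest to each other at 0.22, and the nearest member to Nfkbie was Nfkbia, at 0.24. Rel lay nearest to Nfkb1, at 0.26. The nearest member to Tnfaip3 was Rel, at 0.52. These distances grow with a gene's own spread over the libraries, which was 0.50 for Tnfaip3, 0.20 for Nfkb1 and 0.18 for Nfkbia on the same scale. The distances of Nfkbia to Nfkb1 and of Tnfaip3 to Rel were larger than the spread of either gene. No adjustment for GC content entered the distances, and Rela, Nfkb2, Relb, Nfkbib and Tnip1 are all among the genes of high transcript GC. The part of the GC contrast in these distances was not tested. Among tested genes with a mean of at least 10 CPM, those nearest to Tnfaip3 were Itgb3 (0.095), 1700071M16Rik (0.13) and Ralgps1 (0.14). Nearest to Nfkbia were Lrmp (0.044), Stn1 (0.067) and Tmem63a (0.068), and nearest to Nfkb2 were Adam15 (0.058), 4731419I09Rik (0.063) and Gm10653 (0.065).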

How the data were processed

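RNA sequencing gave 6 libraries. The tables the authors deposited hold raw counts of reads for each gene, with 5 rows that name no gene. Those rows, of which reads outside any gene held 43.1% to 44.3% of all counts per library, stayed out of library sizes and tests. Per the submitters' processing notes, the tools were STAR 2.7.11b, Trim Galore 0.6.10, FastQC 0.11.8 and DESeq2 1.44, with the build mm10. Which program counted the reads, with what strand option and which gene models, is not given in the sources used here. Nfkbib is overlapped on the opposite strand by Sirt2 (11639 counts in all), and Nfkb2 by Psd (706 counts). Without strand, reads from such an overlap cannot be assigned to a single gene. Among the 5 rows is that of ambiguous reads, with 1.68% to 3.02% of all counts per library. Whether reads from these overlaps were placed there, and so left out of both genes, is not known.

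Symbols, lengths, GC content and positions came from GENCODE M21 (GRCm38), in which 52073 identifiers matched without version numbers and 4618 did not. Promoters came from RefSeq (GRCm38.p6). Treatment effects were tested under R 4.3.3 by the robust quasi-likelihood method of edgeR 4.0.16 after filterByExpr and TMM scaling, with no other term, and p-values of 14856 genes were adjusted by Benjamini-Hochberg to a threshold of 0.05. The SE of a log2 fold change was obtained from its F statistic (their ratio after taking the root of F), and levels are CPM on TMM-scaled library sizes. GC offsets used splines with 5 degrees of freedom and covered 14565 genes. DESeq2 1.42.0, limma 3.58.1 and the other alternatives are given in the closing section. The procedure was also run on simulated counts with planted changes. These held no GC contrast between libraries, so that run cannot show how the procedure behaves under it.

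The mouse letter in the titles pairs libraries across treatments, since both come from the same mouse per the labels. Deviations from group means correlated at -0.131, 0.318 and -0.301 for mice a, b and c. The members, pathway lists, marker lists and tests were chosen with earlier results of these data known. The text names all 10 members, the 2 genes of smallest p and the gene of highest mean CPM in each pathway list, the highest and the undetected markers, and the nearest genes. Some markers are not reported here. A few genes were added after their values were seen: Itgam, Myd88, the untested target genes and the remaining dendritic cell markers.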

Additional observations from a re-analysis of the deposited data

How the results depend on the processing

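Among the 10 genes the count of 0 called members held with the replicate block, RLE size factors, both other filters, DESeq2 with and without the block, limma-voom with and without library quality weights, each left-out library or mouse, and offsets for GC and length, unblocked or blocked. It was 3 without the 3 libraries that stand apart (thiothixene from mouse a, DMSO from mice b and c). That fit called Tnfaip3 at 1.18 (adjusted p 8.68e-06), Relb at -1.08 and Nfkb1 at -0.43, and of the named pathway genes Tlr2, Tlr1 (-0.76), Marcksl1 (-0.77) and Plau (1.29). It rests on a lone DMSO library of another mouse, assumed to vary like the thiothixene ones, and called 1105 genes, 6.99% of 15807. Over all tested genes edgeR called 0 and 0 with the replicate block. The count was 1 without a low-count filter, 8 in DESeq2, 1 in DESeq2 with the replicate block, 25 with quality weights and 45 without mouse c (block kept). Fold changes of Tnfaip3 ran from 0.81 to 1.20, of Nfkbie from -1.13 to -0.59, of Nfkbia from -0.47 to -0.30 and of Relb from -1.28 to -0.34, with no sign change in 20 settings. Members with an unadjusted p under 0.05 in edgeR numbered 2 with all libraries, beside 256 of 14856 tested genes. The count was 0 without thiothixene from mouse c, beside 145 of 15361 genes. Without DMSO from mouse c it was 4, beside 651 of 15294 genes. With the replicate block and all libraries it was 1, Tnfaip3, beside 165 of 14856 genes. Leaving out 1 library gave -0.65 to 0.22 for Rela, -0.28 to 0.30 for Rel, -0.25 to 0.041 for Nfkb1, -0.79 to -0.062 for Nfkb2, -0.67 to 0.28 for Nfkbib, -0.059 to 0.45 for Tnip1, -0.32 to 0.12 for Nfkbiz, -0.32 to 0.52 for Nfkbid and -0.14 to 0.44 for Tax1bp1. With the replicate block and no mouse a, values were 0.38 for Rela, 0.11 for Nfkb2, 0.10 for Nfkbib, 0.14 for Map3k14 and -0.19 for Tax1bp1. Without mouse b they were 0.14 for Rela, -0.26 for Rel, 0.053 for Nfkbib and -0.035 for Tax1bp1. Without mouse c they were 0.015 for Nfkb1, -0.10 for Tnip1, 0.053 for Nfkbiz and -0.55 for Nfkbid. Quality weights gave -0.27 for Rel and 0.14 for Nfkbib, and leaving out the 3 libraries gave -0.39 and 0.10. The offsets gave -0.0098 for Rel and -0.17 for Ikbkg, or -0.034 for Ikbkg with the block. The cause was not tested. The replicate block changed no call among the members after adjustment. The lowest count of any member in a library was 110, that of Nfkbie in thiothixene from mouse a.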
